A study of Aedes aegypti with 5 samples.

Results

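The salivary glands of the female mosquito *Aedes aegypti* at 24 hours post feeding (hpf) were compared directly with the glands at 3 hpf. All 433 gene probes of the array entered the comparison, on the 3 arrays of each time, which are 6 of the 15 arrays of the series. Gene probes fill 435 of the 480 positions, since 1 probe was spotted 3 times, and the other positions hold empty spots and artificial control sequences. Both groups were females of the Higgs white eye strain, pathogen-free and of the same age, that had taken no earlier blood meal and were starved for 16 h. Both then fed on a BALB/c mouse until fully engorged, so the blood meal is common to both groups, which differ in the time of dissection and in the mosquitoes pooled. The glands of 10 mosquitoes were pooled per time, and the RNA of each pool was hybridized on 3 arrays. Each time is therefore 1 pool, and every p-value below measures the spread between arrays of a pool, not between mosquitoes. In a pool, fewer cells of a type and less RNA per cell cannot be told apart.

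The salivary gland makes the saliva that a female injects while she probes and feeds. Saliva holds apyrase, which breaks down the nucleotides that activate platelets, D7 and odorant binding proteins, which bind small host molecules, and proteins of the 30 kDa (aegyptin) family, which bind collagen. It also holds antimicrobial peptides, mucins, proteases and their inhibitors. Feeding empties the gland of part of these proteins, and the hours after it are a time of resynthesis.

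The array is a nylon membrane with spotted oligonucleotides. Each normalized intensity is the brightness of a spot over the average empty spot, as a share of the average brightness of actin and ribosomal protein S5, the reference spots, taken in the same way. A probe that passes the mean of the empty spots plus 2 SD counts as above them, and it is detected when this holds for 2 or 3 arrays of either time. Of the 433 probes 159 were detected, 117 lay above the empty spots on all 6 arrays and 258 on none. The intensity scale ended for bright spots, and 36 probes were saturated (spot intensity of 60000 or more) on all 6 arrays. They had a raw ratio of 0.995 and a median normalized ratio of 1.15 (24 over 3 hpf), and no fold was measured for them. The other 123 detected probes are called measured below. Of these, 93 were saturated on none of the 6 arrays, and the rest on part of them, so that their differences can be cut by the ceiling. Of 14 markers of the salivary gland by description (apyrases, amylase, alpha-glucosidases, D7 and 30 kDa proteins) 13 were detected and 7 were saturated on all 6 arrays, with summed levels of 21.2 to 24.5 at 24 hpf and 20.9 to 23.3 at 3 hpf. The 1 muscle marker was not detected, markers of hemocytes and fat body were 0 on the array, and the 2 gut markers, a large trypsin (AEA-876) and carboxypeptidase B (AY590494), summed to 0.421 to 1.56 at 24 hpf and 0.807 to 2.02 at 3 hpf. Their part in the results was not tested. The first array of 3 hpf stands apart, with 7 gene probes no brighter than the average empty spot, against 145 to 164 on the other 5 arrays. The arrays with the number 3 were the brightest of each time, with a median normalized intensity of the measured probes of 0.528 at 24 hpf and 0.701 at 3 hpf, against 0.141 and 0.200 on the other arrays of 24 hpf and 0.213 and 0.318 on those of 3 hpf. Since arrays of the same number moved together, limma was run both without a block and with the array number as one (the replicate block), and the blocked value is given where it changes a call.

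On the scale of the reference spots more probes read lower than higher at 24 hpf, and a few stood well above. Values under a floor of 0.1077 were raised to it before the log2 fit, so that fitted differences of dim probes are smaller than their ratios imply. In limma over 432 probes 1 probe was higher at 24 hpf (0.231% of those tested) and 0 were lower (0%), at an adjusted p of 0.05. At an unadjusted p of 0.05, 6 were higher (1.39%) and 15 lower (3.47%). With the replicate block 4 were higher (0.926%) and 15 lower (3.47%), 4.4% of probes in all. A ratio exists only where the means of both times lay above 0, which held for 276 of the 433 probes. By ratios of means, with no test, 11 probes lay at 2-fold or above (2.54% of 433) and 79 at 0.5-fold or below (18.2%), of which 7 and 27 were detected. Detected probes that also had arrays on 1 side only, and passed the empty spots on each array of the brighter time, numbered 1 at 2-fold or above (0.231%) and 7 at 0.5-fold or below (1.62%). Among the 123 measured probes the 24 hpf arrays lay wholly above the 3 hpf arrays for 5 (4.07%) and wholly below for 14 (11.4%).

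**Figure D1:**
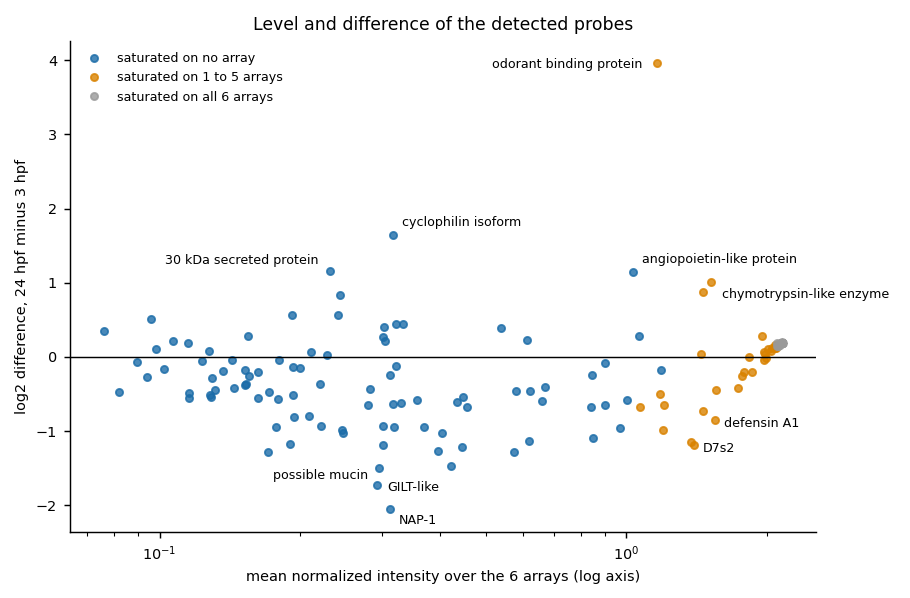
Log2 difference (24 hpf minus 3 hpf, limma) of the 158 detected probes other than the S5 reference, against their mean normalized intensity over the 6 arrays on a log axis, with 1 point per probe coloured by saturation. The odorant binding protein stands alone at 3.96, most unsaturated probes lie below 0, and the probes saturated on all 6 arrays lie together at the right with no measured fold.

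The direction of the bulk depends on the scaling. Of the 122 measured probes that were tested, 37 had a difference above 0 and 85 below 0, with a median of -0.37 on the log2 scale. With the median of the 31 probes that lay above the empty spots and below saturation on all 15 arrays as the reference (the median reference) in place of actin and S5, 73 lay above 0 and 49 below, with a median of 0.13, and with quantile normalization 55 lay above and 67 below, with a median of -0.06. Within same-numbered arrays, 72 of the 123 measured probes were lower at 24 hpf in 3 of 3 pairs and 27 were higher in 3 of 3. Of the 93 saturated on none of the 6 arrays, 61 were lower and 14 higher in 3 of 3. Without the third array of 3 hpf the median was -0.01, and without the third array of 24 hpf it was -0.60. A difference below is therefore read relative to the other probes where the scaling changes it.

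The odorant binding protein (AE-352), which belongs to a family of small carriers of hydrophobic ligands, had the largest difference of all probes tested. Its normalized intensity was 2.53, 2.17 and 1.90 on the 24 hpf arrays, against 0.0917, 0.0633 and 0.237 on the 3 hpf arrays. The spot was saturated on 2 of 3 arrays at 24 hpf and lay above the empty spots on 1 of 3 at 3 hpf, so the groups were far apart, with 24 hpf near the ceiling of the measurement and 3 hpf near its floor. The ratio of means was 16.8, and the difference was 3.96 ± 0.50 (log2, SE, adjusted p = 0.0051 in limma, and 0.00174 with the block). It was the only call of the unblocked test, and it was higher at 24 hpf in 3 of 3 same-numbered pairs. With any 1 array left out the difference was 3.77 to 4.34, with adjusted p of 0.00596 to 0.0401. The call was lost with no reference at all (adjusted p = 0.0745), in a fit of the 24 and 3 hpf arrays alone (0.22) and without replicate 1 of every group (0.798), at differences of 3.78, 3.96 and 3.67.

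Of the D7 proteins, 2 short ones had arrays of 24 hpf that lay wholly below those of 3 hpf. The same held for 14 of all 123 measured probes (11.4%). D7s2 (AF420273), a short D7 protein, read 0.441, 0.902 and 1.41 at 24 hpf, against 1.91, 1.95 and 1.78 at 3 hpf, where 2 of 3 arrays were saturated. The arrays did not overlap and the ratio was 0.488, but the difference of -1.19 ± 0.39 (log2, SE) was not past the test (adjusted p = 0.769). D7s4 (AE-256) read 1.19, 1.52 and 1.76 at 24 hpf, against 2.17, 1.97 and 1.80 at 3 hpf with all 3 arrays saturated. By means of log2 values, and on the scale of the reference spots, its level was at least 1.34-fold lower at 24 hpf. The probe had no call (adjusted p of 1.0). D7s1 (AY951937) was saturated on 2 arrays at 24 hpf and on 3 at 3 hpf (ratio 1.05), both long D7 probes were saturated on all 6 arrays, D7s3 (AY951936) lay above the empty spots on none, and its allele (AE-182) read 0.251, 0.196 and 0.639 at 24 hpf and 0.348, 0.404 and 0.898 at 3 hpf (ratio 0.658). Of the 11 carriers on the array 8 were detected and 6 measured, of which 3 lay above 0 and 3 below, with a median of -0.18 (0.44 with the median reference), against -0.37 over all measured probes (0.13). In limma 1 carrier was higher (0.231% of all probes) and 0 lower, and with the block again 1 was higher (0.926% of all probes) and 0 lower.

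**Figure D2:**
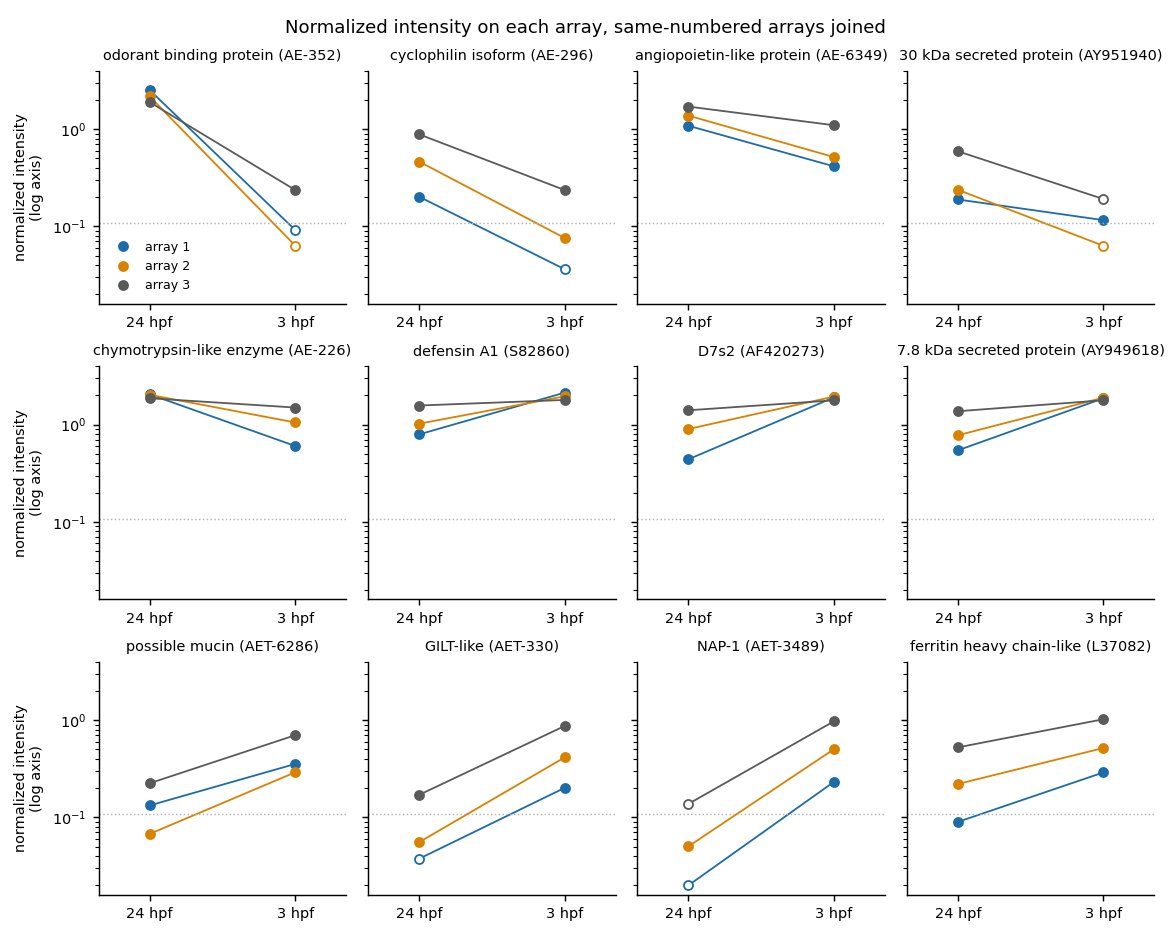
Normalized intensity (log axis) of 12 probes on each array, 24 hpf at the left and 3 hpf at the right of each panel, with same-numbered arrays joined by a line. Filled points lie above the empty spots of their array, open points do not, the dotted line is the floor of 0.1077, and 1 value of NAP-1 below 0 is drawn at the lower edge. The odorant binding protein, cyclophilin isoform, angiopoietin-like, 30 kDa and chymotrypsin-like probes read higher at 24 hpf on every pair of arrays, and the other 7 read lower.

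Among genes of immunity, the angiopoietin-like protein (AE-6349) read 1.08, 1.38 and 1.71 at 24 hpf, against 0.414, 0.516 and 1.10 at 3 hpf. Proteins of this kind carry a fibrinogen-like domain, a fold that in insects serves in the recognition of microbes. The highest array of 3 hpf just exceeded the lowest of 24 hpf, and no array was saturated. The ratio was 2.06 and the difference 1.15 ± 0.39 (log2, SE, adjusted p = 0.769), and it was past the test with the block (1.15 ± 0.26, adjusted p = 0.0466). The probe for its splice variant (AE-154) was saturated on all 6 arrays and gives no fold.

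Defensin A1 (S82860), an antimicrobial peptide, ran the other way. It read 0.794, 1.02 and 1.57 at 24 hpf, against 2.14, 1.96 and 1.80 at 3 hpf, where all 3 arrays were saturated. The arrays did not overlap. By means of log2 values, and on the scale of the reference spots, the level was at least 1.81-fold lower at 24 hpf. The probe had no call in limma (adjusted p of 0.941, and 0.277 with the block). The bacteria responsive protein 1 (AgBR1, AEA-871BRE) read 0.893, 1.03 and 1.51 at 24 hpf and 0.587, 0.914 and 1.44 at 3 hpf, with overlapping arrays (ratio 1.17). Of 14 immunity probes 12 were detected and 7 measured, 4 of them above 0 and 3 below, with a median of 0.00 (0.62 with the median reference), against -0.37 over all measured probes. Of the 4, I23Ma (AEA-233) was saturated on 2 arrays at 24 hpf and on 3 at 3 hpf (ratio 1.08), and gambicin (AF466602) on 1 and 2 (ratio 1.00). Past limma were 0 in either direction, and with the block 1 was higher and 0 lower (0.926% and 3.47% over all probes).

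Of 12 mucins and peritrophins, glycosylated proteins that coat and lubricate the ducts, 9 were detected and 8 measured. The possible mucin AET-6286 had the smallest p of the blocked test. It read 0.133, 0.0676 and 0.224 at 24 hpf, against 0.355, 0.291 and 0.701 at 3 hpf. All 3 arrays of 24 hpf lay below those of 3 hpf, none was saturated, and the second array of 24 hpf lay under the floor. The ratio was 0.315 and the difference -1.50 ± 0.50 (log2, SE, adjusted p = 0.769 in limma), or -1.50 ± 0.10 with the block (adjusted p = 0.000206). A second possible mucin (AE-922) had a ratio of 0.604 and salivary mucin (AE-979) one of 0.670, both read lower in 3 of 3 pairs, and neither was past either test. The putative mucin AE-329 read 0.128, 0.114 and 0.329 at 24 hpf and 0.204, 0.115 and 0.270 at 3 hpf (ratio 0.971). In the list 2 measured probes lay above 0 and 6 below, with a median of -0.31, against -0.37 over all measured probes, and the median turned to 0.28 with the median reference. In limma 0 mucins were higher and 0 lower, and with the block 0 were higher and 1 lower (3.47% over all probes).

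The salivary chymotrypsin-like enzyme (AE-226), a digestive type of serine protease, read 2.05, 2.03 and 1.87 at 24 hpf, against 0.604, 1.05 and 1.50 at 3 hpf. Its arrays did not overlap, and 2 of 3 were saturated at 24 hpf and 0 at 3 hpf. The ratio was 1.89 and the difference 1.01 ± 0.26 (log2, SE), which had an unadjusted p of 0.00301 and was not past the adjusted test (adjusted p of 0.434, and 0.105 with the block). The clip-domain serine protease AET-6559 read 0.0819, 0.0728 and 0.192 at 24 hpf and 0.173, 0.119 and 0.338 at 3 hpf (ratio 0.550). Of the 8 serine proteases 6 were detected and 5 measured, 4 above 0 and 1 below, with a median of 0.24 (0.86 with the median reference). Of the 4, the putative serine protease AF466600 was saturated on 2 arrays at 24 hpf and on 3 at 3 hpf (ratio 1.12). Of 4 protease inhibitors 3 were detected and 2 measured, and the cystatin AE-746, an inhibitor of cysteine proteases, had a ratio of 0.974. Neither list held a call in limma, with or without the block.

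The putative 30 kDa secreted protein AY951940 read 0.189, 0.238 and 0.592 at 24 hpf, against 0.116, 0.0630 and 0.191 at 3 hpf, where 1 of 3 arrays lay above the empty spots. Each array of 24 hpf exceeded its same-numbered array of 3 hpf, while the groups overlapped narrowly. The ratio was 2.76, and the difference of 1.16 ± 0.50 (log2, SE, adjusted p = 0.945) was past the test with the block (1.16 ± 0.21, adjusted p = 0.0171). Of the 8 probes of the aegyptin family 7 were detected and 5 of these were saturated on all 6 arrays, so the abundant members gave no fold. Both measured members lay above 0, and with the block 1 was higher and 0 lower (0.926% and 3.47% over all probes). The member beside AY951940, AE-260, was saturated on 2 arrays at 24 hpf and on 3 at 3 hpf (ratio 1.05). Its difference is therefore no measured rise. The 2 antigen 5 probes, of which 1 was detected and saturated throughout, gave none either.

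Among other secreted proteins, most of unknown function, the putative 7.8 kDa protein AY949618 read 0.544, 0.778 and 1.37 at 24 hpf, against 1.87, 1.90 and 1.78 at 3 hpf, where 2 of 3 arrays were saturated. The arrays did not overlap and the ratio was 0.486. The difference of -1.15 ± 0.27 (log2, SE) had an adjusted p of 0.366 in limma, and 0.0258 with the block. The glycine rich salivary secreted peptide AET-4173 had the opposite course, with 1.81, 1.91 and 1.85 at 24 hpf, against 0.667, 1.03 and 1.50 at 3 hpf. Its arrays did not overlap and its ratio was 1.74, without a call (adjusted p of 0.769, and 0.106 with the block). The salivary secreted peptide AE-376 read 0.120, 0.166 and 0.439 at 24 hpf, against 0.319, 0.416 and 0.918 at 3 hpf, and was lower with the block (ratio 0.438, -1.27 ± 0.15, adjusted p = 0.00421). AEA-219, also a putative salivary peptide and named after its values were seen, was lower with the block at a ratio of 0.672 (adjusted p = 0.0087), and its difference was -0.03 with the median reference, where it was not past the test. Of 39 probes in the list 33 were detected and 21 measured, 7 above 0 and 14 below, with a median of -0.24 (0.20 with the median reference). In limma 0 of the 39 were higher and 0 lower, and with the block 0 were higher and 3 lower (3.47% over all probes).

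The 7 enzymes of saliva that act on nucleotides, sugars and esters were all detected, and 4 of 7 were saturated on all 6 arrays, among them amylase (L03637). The second apyrase or 5' nucleotidase (AET-617) read 0.719, 0.876 and 1.37 at 24 hpf and 0.979, 1.40 and 1.76 at 3 hpf (ratio 0.715, adjusted p of 1.0, and 0.0998 with the block). The putative carboxylesterase AF466590 had a ratio of 0.950. The differences of all 3 measured members lay below 0, with a median of -0.26 that turned to 0.36 with the median reference, and none was past either test.

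The nucleosome assembly protein NAP-1 (AET-3489), a histone chaperone, had the largest difference below 0 of all probes tested. It read -0.0310, 0.0504 and 0.138 at 24 hpf, where 1 of 3 arrays lay above the empty spots, against 0.232, 0.504 and 0.976 at 3 hpf, where all 3 did. The arrays did not overlap. The ratio of means, 0.0917, rests on values of 24 hpf near the empty spots and is no measured fold, and the floored difference was -2.05 ± 0.57 (log2, SE, adjusted p = 0.522), or -2.05 ± 0.39 with the block (adjusted p = 0.0195). The putative mRNA binding protein AY064108 read -0.00299, 0.0326 and 0.0800 at 24 hpf, above the empty spots on none of 3 arrays, against 0.148, 0.223 and 0.544 at 3 hpf, above them on all 3. By the lowest signals above the empty spots, and on the scale of the reference spots, it was at least 3.38-fold lower. The floored difference, to which the p-values belong, was smaller, at -1.28 ± 0.48 (log2, SE). It was without a call in limma (adjusted p of 0.769, and 0.0764 with the block).

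The probe similar to gamma-interferon inducible lysosomal thiol reductase (GILT, AET-330), an enzyme that reduces disulfide bonds in lysosomes, read 0.0375, 0.0555 and 0.170 at 24 hpf, against 0.201, 0.414 and 0.872 at 3 hpf. No array of 24 hpf reached the lowest of 3 hpf, and 2 of 3 lay above the empty spots at 24 hpf. The ratio of 0.177 thus rests on values near the empty spots and is no measured fold. The floored difference was -1.73 ± 0.65 (log2, SE, adjusted p = 0.769 in limma, and 0.00465 with the block). The lysosomal aspartic protease precursor M95187, a degradative enzyme of the same organelle named after its values were seen, was lower with the block too, with 0.123, 0.197 and 0.485 at 24 hpf, against 0.238, 0.451 and 0.923 at 3 hpf (ratio 0.499, adjusted p = 0.00432). S-adenosylhomocysteine hydrolase (AET-5159), which clears the by-product of methylation reactions, read 0.0249, 0.0555 and 0.136 at 24 hpf and 0.146, 0.219 and 0.562 at 3 hpf (ratio 0.234). Its arrays did not overlap, but only 1 of 3 lay above the empty spots at 24 hpf, so this ratio is no measured fold either. The floored difference was -1.17 ± 0.435 (log2, SE), past neither test (adjusted p of 0.769 in limma, and 0.138 with the block).

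Ferritin heavy chain-like protein (L37082), the iron storage subunit, read 0.0899, 0.221 and 0.525 at 24 hpf, against 0.290, 0.518 and 1.02 at 3 hpf. The groups overlapped, each pair was lower at 24 hpf, and the ratio of 0.456 was past the test with the block (adjusted p of 1.0 without it, 0.00465 with it). The same held for the hemolymph protein-like probe AET-166 (ratio 0.368, adjusted p of 0.769 without the block, 0.00462 with it) and for the translationally controlled tumor protein AET-2239 (ratio 0.490, 1.0 without, 0.00432 with). Calmodulin (AET-410), the calcium sensor, named after its values were seen, had a ratio of 0.402 and was lower with the block (adjusted p = 0.0087). Calmodulin lay above the empty spots on 2 of 3 arrays at 24 hpf, so its ratio is no measured fold.

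The cyclophilins, which isomerize proline bonds in folding proteins, parted. The cyclophilin isoform AE-296 read 0.202, 0.464 and 0.886 at 24 hpf, against 0.0362, 0.0759 and 0.236 at 3 hpf. It lay above the empty spots on 3 arrays at 24 hpf and on 2 at 3 hpf, and the ratio was 4.45. The difference was 1.64 ± 0.63 (log2, SE, adjusted p = 0.834), or 1.64 ± 0.24 with the block (adjusted p = 0.00527). Cyclophylin (AE-239, spelled so in the file and named after its values were seen) read 0.141, 0.263 and 0.633 at 24 hpf and 0.204, 0.440 and 0.928 at 3 hpf. It was lower with the block (ratio 0.660, -0.61 ± 0.09, adjusted p = 0.00527), and its difference was 0.01 with the median reference, where it was not past the test. On the same array the log2 ratio of AE-296 to AE-239 averaged 0.61 ± 0.19 at 24 hpf and -2.33 ± 0.31 at 3 hpf (SD, 3 arrays each). No scaling of an array can change this difference of 2.94. It is not exact, since AE-296 was not above the empty spots on 1 of the arrays. Its 3 hpf values of 0.0362 and 0.0759 lay under the floor and were not raised to it here.

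**Figure D3:**
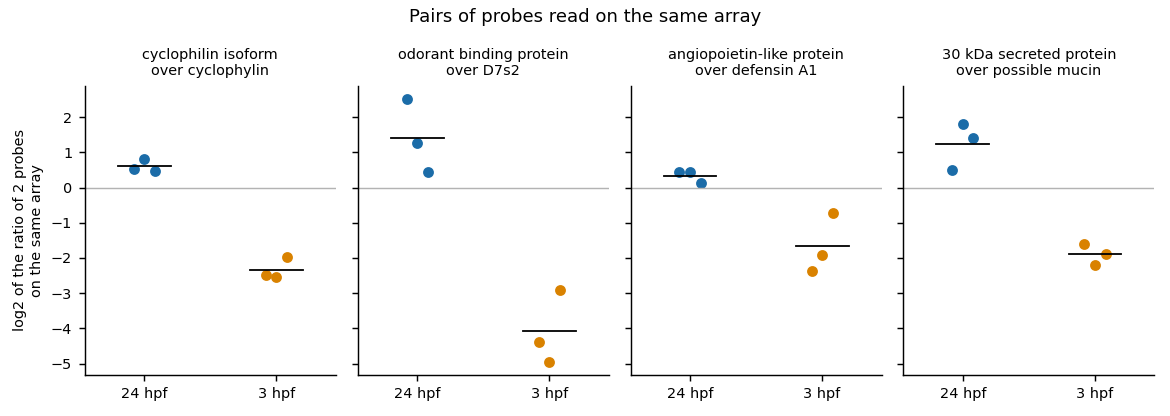
Log2 of the ratio of a pair of probes read on the same array, with 24 hpf at the left, 3 hpf at the right, 1 point per array and the mean as a bar. The pairs were chosen after their values were seen, the level of a ratio depends on the probes and only its change is read, and in each of the 4 panels all 3 arrays of 24 hpf lie above those of 3 hpf.

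Pairs of probes that ran in opposite directions give the same view for secreted proteins. The log2 ratio of the odorant binding protein to D7s2 averaged 1.41 ± 1.05 at 24 hpf and -4.08 ± 1.05 at 3 hpf (SD, 3 arrays each). The first was saturated on 2 arrays at 24 hpf and above the empty spots on 1 at 3 hpf, and D7s2 was saturated on 2 at 3 hpf, so these values are not exact. That of the angiopoietin-like protein to defensin A1 averaged 0.33 ± 0.19 at 24 hpf and -1.67 ± 0.86 at 3 hpf, with defensin saturated at 3 hpf. That of the 30 kDa protein AY951940 to the possible mucin AET-6286 averaged 1.24 ± 0.67 at 24 hpf and -1.90 ± 0.30 at 3 hpf, where AY951940 lay above the empty spots on 1 array. These pairs were chosen for their opposite directions, so that their separation is a description only.

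**Figure D4:**
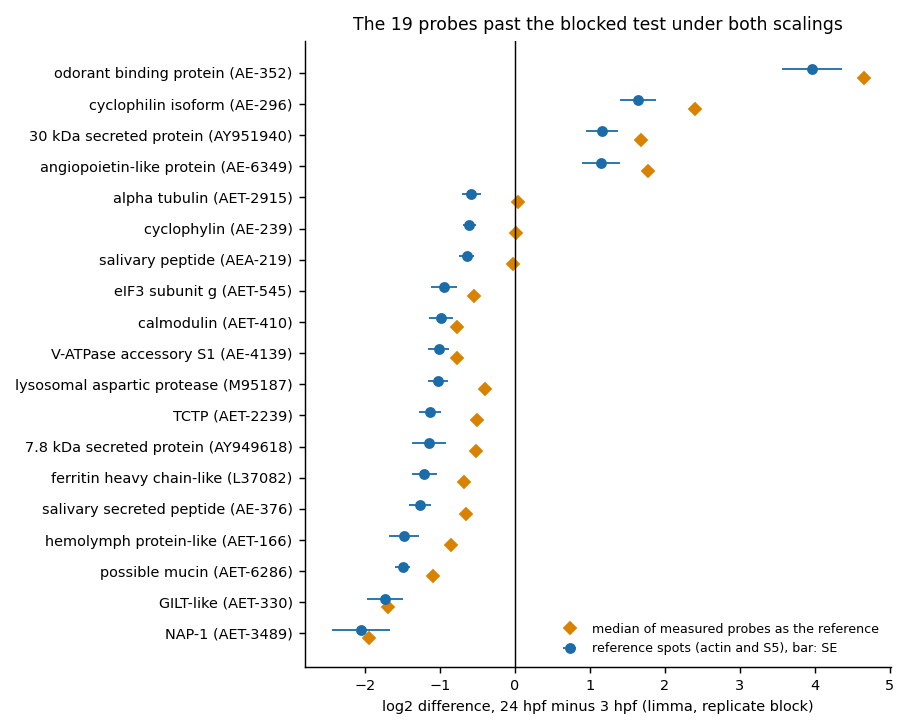
Log2 difference (24 hpf minus 3 hpf) of the 19 probes past limma with the replicate block, with circles and SE bars for the reference spots and diamonds for the median of measured probes as the reference. The median reference raises the differences of all 19 probes, so that the 4 higher probes stay above 0 under both is no test of them. Of the 15 lower probes 13 stay below 0, among them AEA-219 at -0.03. Alpha tubulin and cyclophylin move to 0.04 and 0.01.

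Of the 19 probes past the blocked test 17 were saturated on no array. All 4 higher probes were also past it with S5 alone and with the median of measured probes as the reference. All 15 lower probes were past it with S5 alone, and 9 with the median reference. These were the possible mucin, the hemolymph protein-like probe, AE-376, the V-ATPase accessory subunit, ferritin, calmodulin, NAP-1, the GILT-like probe and the lysosomal aspartic protease. The median reference raised the differences of all 19 probes, and it moved the median over the measured probes from -0.37 to 0.13. It therefore does not test the 4 higher calls. S5 already made up most of the main reference, so S5 alone tests the calls of either direction little.

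Among genes of the protein-making machinery few gave a measured fold. Of 17 translation factors 4 were detected and measured, all below 0, with a median of -0.77 (-0.27 with the median reference). Translation initiation factor 3 subunit g (AET-545) read 0.0670, 0.145 and 0.409 at 24 hpf, against 0.178, 0.326 and 0.785 at 3 hpf, and was lower with the block (ratio 0.482, adjusted p = 0.0185), though not with the median reference (adjusted p = 0.0855 with the block). Elongation factor 1 alpha (AET-205) read 0.0556, 0.142 and 0.371 at 24 hpf and 0.163, 0.325 and 0.748 at 3 hpf, with a ratio of 0.460 (adjusted p of 0.0551 with the block). AET-545 and AET-205 each lay above the empty spots on 2 of 3 arrays at 24 hpf, so neither ratio is a measured fold. Of the 4 ribosomal proteins beside S5, 3 were saturated on all 6 arrays and gave no fold, and S4 (AE-303) had a ratio of 0.658, past neither test. In the translation list 0 were higher and 0 lower in limma, and with the block 0 were higher and 1 lower (3.47% over all probes).

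The secretory route gave a mixed picture. Sec61 alpha (AY064125), the channel through which secreted proteins enter the endoplasmic reticulum, read 0.143, 0.301 and 0.658 at 24 hpf and 0.214, 0.449 and 0.910 at 3 hpf (ratio 0.701). The signal peptidase subunits AE-284 and AE-301, which cut the signal sequence from the entering protein, had ratios of 1.34 and 1.26, with every same-numbered pair above 1. None of the 19 probes of the route was past either test, and 3 were detected. Calreticulin (AF466603), a calcium-binding chaperone of the endoplasmic reticulum, read 0.945, 1.46 and 1.60 at 24 hpf, against 1.70, 1.89 and 1.74 at 3 hpf, where 2 of 3 were saturated. Its arrays did not overlap (ratio 0.749, adjusted p of 0.870, and 0.220 with the block). Heat shock cognate 70 (AET-381), a chaperone of new proteins, had 0.134, 0.289 and 0.649 at 24 hpf and 0.379, 0.769 and 1.23 at 3 hpf (ratio 0.450, adjusted p of 0.0662 with the block). Of 18 chaperones 6 were detected and measured, 2 above 0 and 4 below, with a median of -0.43 (0.19 with the median reference). With the block 1 was higher, the cyclophilin isoform, and 0 lower (0.926% and 3.47% over all probes).

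The vacuolar ATPase, a proton pump of secretory and lysosomal membranes, had 5 of 9 probes detected, 1 above 0 and 4 below, with a median of -0.57 (0.00 with the median reference). Its accessory subunit S1 (AE-4139) read 0.0556, 0.0960 and 0.278 at 24 hpf, against 0.175, 0.242 and 0.636 at 3 hpf. It was the 1 member lower with the block (ratio 0.408, adjusted p = 0.00432), against 3.47% over all probes. This subunit lay above the empty spots on 2 of 3 arrays at 24 hpf, so its ratio is no measured fold. Alpha tubulin (AET-2915), the 1 detected probe of 8 of the cytoskeleton, read 0.425, 0.790 and 1.26 at 24 hpf and 0.712, 1.28 and 1.56 at 3 hpf. It was lower with the block (ratio 0.698, adjusted p = 0.0391), and its difference was 0.04 with the median reference. Of 15 probes of the proteasome and ubiquitin 1 was detected, and of 9 for mitochondrial proteins and 11 for oxidant defence 0 were detected at either time. Outside all lists 46 of 217 probes were detected, 9 above 0 and 36 below, with a median of -0.42 (-0.01 with the median reference), and with the block 0 were higher and 8 lower, a share close to the 3.47% over all probes.

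Enzymes of serine synthesis were read at both times. Phosphoserine aminotransferase (AE-3793) read 0.0538, 0.120 and 0.317 at 24 hpf, against 0.178, 0.346 and 0.789 at 3 hpf (ratio 0.374). D-3-phosphoglycerate dehydrogenase (AET-3626), which carries out the step before it in the pathway, read 0.0103, 0.0924 and 0.239 at 24 hpf, against 0.123, 0.251 and 0.617 at 3 hpf (ratio 0.345). Each lay above the empty spots on 2 of 3 arrays at 24 hpf, so neither ratio is a measured fold. Both read lower in 3 of 3 pairs with overlapping groups, and neither was past limma (adjusted p of 0.936 and 1.0) or the block (0.253 and 0.482). Carboxypeptidase B (AY590494), a digestive exopeptidase and 1 of the 2 gut markers, had a ratio of 0.501 (adjusted p of 0.870, and 0.202 with the block).

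The reference spots bear on every value above. Normalized S5 was 1.96, 1.96 and 1.85 at 24 hpf, with 1 of 3 arrays saturated, and 1.92, 1.94 and 1.79 at 3 hpf, with 2 of 3 saturated (ratio 1.02). Actin read 0.0352, 0.0383 and 0.153 at 24 hpf and 0.0802, 0.0643 and 0.214 at 3 hpf, above the empty spots on 1 array at 24 hpf and on 0 at 3 hpf, so no fold is given. It made up 1.76% to 7.63% of the reference at 24 hpf and 3.21% to 10.7% at 3 hpf.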

How the data were processed

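Spot intensities and local backgrounds were deposited by the authors as a raw sheet, beside a report sheet of normalized intensities made with GEArray Expression Analysis suite 2.0. Recomputed from the raw sheet, the normalized intensity differed by at most 0.000129. Positions 411 (actin) and 424 (ribosomal protein S5) are its reference spots by the file header, which the recomputed values fit, whereas the methods name ribosomal protein L5 and no actin. The paper's identifier for L5 is next to that of the S5 probe, and whether both are the same transcript was not tested. The authors also deposited a series matrix with score values, which are ratios to unfed and served as an alternative for the ratios. Sheets that hold the authors' own ratios and p-values against unfed were not used. The cRNA (8 µg per array) came from 200 ng total RNA. The number of arrays limits the precision.

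Log2 intensities after a floor of 0.1077 (the median over the arrays of 2 SD of the empty spots) were fitted over all 15 arrays and 5 groups with limma 3.58.1 in R 4.3.3 (contrast 24 minus 3 hpf, Benjamini-Hochberg over 432 probes, S5 left out). The ratio limits of 2 and 0.5 are those of the methods. A bound replaces the fold where a group was saturated, or not above the empty spots, on all its arrays. It is the brighter group's mean over the dimmer group's, means of log2 values. Each array of a dim group is raised at least to its lowest signal above the empty spots. Bounds hold on the scale of the reference spots only, of which S5 was itself saturated on 2 of 3 arrays at 3 hpf. Same-numbered arrays of 24 and 3 hpf had correlated deviations from the group means (r of 0.622 to 0.641 for the 3 pairs, and 0.324 to 0.770 for all 30 pairs of the series, 144 probes), so their numbers were taken to pair them. The scripts were tested on simulated data. Probes were named by a rule: ratios past the limits with arrays that do not overlap, calls of either fit (up to 8 per direction with the block), up to 3 detected members of each list by p, and the genes of the paper's list of significant genes. Not every probe so named is described above. From the paper's list, the MTT rich mucin, vacuolar ATPase subunit d, inhibitor of apoptosis-1 like protein and acetyl-CoA acetyltransferase passed the empty spots on 0 arrays of either time. Calls outside the rule are marked in the text. Lists were drawn by keyword from the gene descriptions, 13 wrong matches were removed by description, and members and lists were chosen with earlier results of these data known. The RefSeq table matched 0 of the identifiers on the array, so names are those of the files and no position in the genome is given.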

Additional observations from a re-analysis of the deposited data

How the results depend on the processing

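The counts of probes higher and lower at 24 hpf past limma (1 and 0) were 0 and 0 without a reference, with only the 24 and 3 hpf arrays, and without replicate 1 of every group, 9 and 6 with the median of measured probes as the reference, 17 and 25 with quantile normalization, 2 and 0 with normexp, and 1 and 2 without replicate 3 of every group. A 2-sample t-test at p of 0.05 or less, the significance level of the methods, with the 2-fold limit gave 1 and 4, and 0 and 0 after Benjamini-Hochberg. With the replicate block they were 4 and 15, with the block on measured probes alone 7 and 39, with S5 alone 4 and 26, and with the median reference 69 and 15, of which 36 were saturated on all 6 arrays. Leaving out 1 array at a time gave 1 to 2 higher and 0 to 1 lower. Ratios past 2-fold and 0.5-fold (11 and 79) were 22 and 43 with the median reference, 39 and 36 with quantile normalization, 20 and 66 with the 25th percentile as background, 11 and 21 with normexp, 7 and 27 on detected probes, 34 and 86 by the series matrix, and 6 to 27 and 49 to 132 with 1 array left out. The highest of each came without the third array of 3 hpf (27) and of 24 hpf (132). Without overlap (1 and 7) they were 11 and 6 with the median reference, 9 and 7 with quantile normalization, 6 and 9 with normexp, 5 and 12 without replicate 1 and 7 and 28 without replicate 3 of every group, and 1 to 8 and 5 to 39 with 1 array left out. Without the block, S5 alone or the other ribosomal proteins as the reference, and a lower or a higher floor, kept each of these counts within 1.5 times. S5 already made up most of the main reference, and of the 4 ribosomal proteins beside it 3 were saturated on all 6 arrays. These references therefore test the counts little. The differences of alpha tubulin and of cyclophylin (AE-239) turned to 0.039 and 0.012 with the median reference, with and without the block. The 5 settings that leave out a replicate of every group or join the block with another choice were chosen after seeing the data. The cause of these changes was not tested.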

Other observations

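The remaining groups of the series place some of these probes, as values with no test, since unfed, 1 hpf and 48 hpf entered no comparison here. The odorant binding protein AE-352 read 0.151, 0.0805 and 0.189 at 1 hpf and 0.269, 0.362 and 0.919 at 48 hpf, against 0.438, 0.822 and 0.979 in unfed glands. Its 24 hpf arrays (2.53, 2.17 and 1.90) lay above all 12 others. Phosphoserine aminotransferase (AE-3793) read 0.0538, 0.120 and 0.317 at 24 hpf and 0.178, 0.346 and 0.789 at 3 hpf, while the highest of the 9 arrays of the other groups read 0.0354. D-3-phosphoglycerate dehydrogenase (AET-3626) had 0.0103, 0.0924 and 0.239 at 24 hpf and 0.123, 0.251 and 0.617 at 3 hpf, with at most 0.0247 on the arrays of the other groups. The 30 kDa protein AY951940 read 0.732, 0.933 and 1.33 at 1 hpf, 0.116, 0.0630 and 0.191 at 3 hpf, 0.189, 0.238 and 0.592 at 24 hpf, and 0.675, 0.955 and 1.47 at 48 hpf. Its levels at 24 and 3 hpf were thus below those of the times on either side on the same-numbered arrays.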
